A study of Homo sapiens with 32 samples.

Results

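PP242 is an inhibitor of the mTOR kinase that binds its ATP pocket and acts on both mTOR complexes, and its effect on total mRNA in MDA-MB-231 cells kept in normoxia was read here from 4 of the 32 libraries of the series. The libraries were chosen by their labels alone: 2 of untreated normoxic cells (N) and 2 of normoxic cells given PP242 at 2.5 µM for 3 hours (NPP), each pair labelled as biological replicates. By the study's methods, the control cells received an equal amount of the DMSO vehicle. MDA-MB-231 is an established human line of triple-negative breast cancer, so every value describes a single line grown in serum. The other libraries of the series hold the same line after 24 hours at 0.5% O2 (H), hypoxic cells with PP242 (HPP), polysome-bound mRNA (P) beside total mRNA (T), and the non-tumourigenic breast line MCF10A. They enter below only where they show how far the response in normoxic total mRNA was shared.

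mTOR is the catalytic subunit of mTORC1, which contains RPTOR, and of mTORC2, which contains RICTOR. mTORC1 promotes translation, above all of mRNAs that start with a terminal oligopyrimidine (TOP) tract, as well as ribosome production and lipid synthesis, and it holds autophagy and the lysosomal transcription factors TFEB and TFE3 in check. mTORC2 phosphorylates AKT, which keeps FOXO transcription factors out of the nucleus, so that mTOR inhibitors of this class are known to raise FOXO target mRNAs.

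The 4 libraries held between 18340916 and 34752512 counts. N replicate 1 had 27262404 counts and N replicate 2 had 18340916, whereas NPP replicates 1 and 2 had 34370456 and 34752512, so the treated side was the deeper one. Values are given in CPM, counts of protein-coding genes brought to a common library size and scaled by the trimmed mean of M values, and 1 count was worth between 0.0288 and 0.0568 CPM. The cells carried the markers of the line: VIM, the mesenchymal intermediate filament, stood at 3150 and 3630 CPM in N and 3740 and 4780 in NPP, and AXL, a receptor kinase, at 760 and 876 against 820 and 872 CPM. ESR1 and PGR, which encode the oestrogen and progesterone receptors, stayed below 1 CPM in all 4 libraries. The other luminal or receptor markers listed did not. ERBB2, a receptor kinase, had 37.8 and 34.4 CPM in N and 42.1 and 45.5 in NPP. GATA3 had 12 and 8.81 CPM in N and 8.83 and 6.84 in NPP, and FOXA1 had 1.51 and 0.796 against 1.29 and 0.828. Of 10 basal epithelial markers listed for MCF10A, 7 were below 1 CPM in every library, among them KRT5, KRT14, TP63 and CDH1, and the sum over this list (366 to 449 CPM) came mainly from LAMB3. Sums over fibroblast markers (14.0 to 17.2 CPM, 6 genes, mostly COL1A1), leukocyte markers (1.59 to 2.84 CPM, 5 genes, mainly CD14 and PTPRC) and endothelial markers (6.37 to 8.57 CPM, 5 genes, mostly KDR) were low on both sides.

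N replicate 2 stood apart from the other total mRNA libraries of this line. Although it was the shallowest, it had a count in 17923 protein-coding genes, against 15097 to 15636 in the other 7. In that library 1094 genes were counted that none of the other 7 contained, with 3102 counts in sum, against 31 to 85 such genes in each of the others. Of 380 olfactory receptor genes, which breast cells are not known to use, 349 had a count in N replicate 2 and 14 to 117 in the others. No gene counted in it alone exceeded 1.59 CPM. Those genes were picked for having no count elsewhere, so that value does not bound the low-level counts in expressed genes. Each of the genes called lower below had at least 9.33 CPM in both N libraries. Among the 1498 tested genes with a mean under 1 CPM, 221 had a log2 fold change (log2FC) under -1 and 89 one over 1, and without N replicate 2 these counts were 100 and 187. The origin of the low-level counts was not tested, and the calls that remain without that library are named below.

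**Figure D1:**
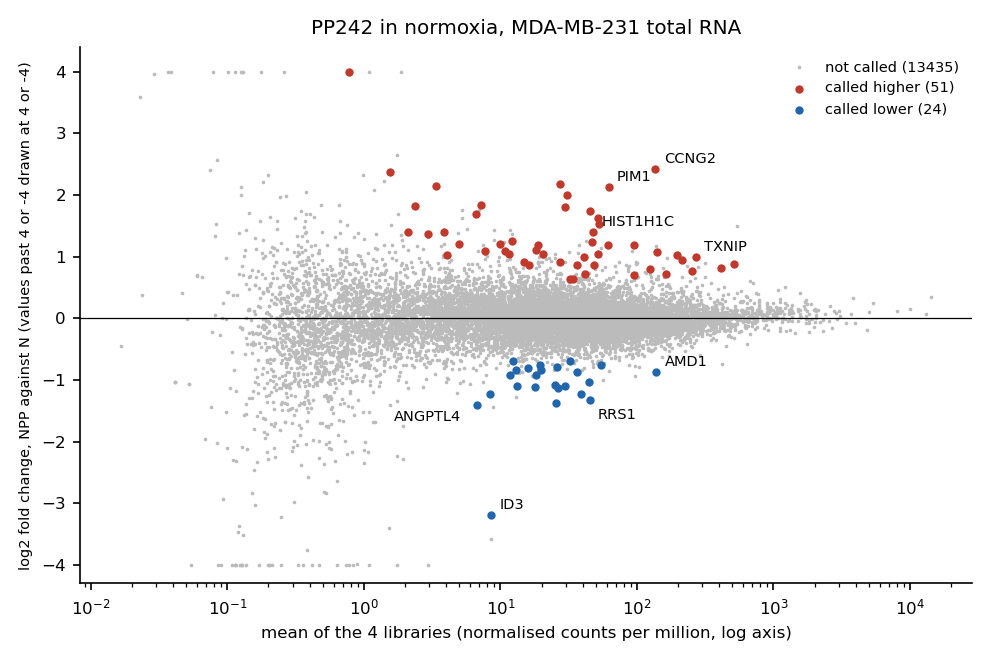
The log2FC between NPP and N is plotted against the mean of the 4 libraries in CPM (log axis), with 1 point per protein-coding gene and values past 4 or -4 drawn at those limits. Red points are the 51 genes called higher and blue points the 24 called lower. Called genes lie mostly above 1 CPM, ID3 is the lowest of them at -3.19, and below 1 CPM the uncalled genes spread widely.

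Of 13510 protein-coding genes tested, 75 (0.555%) differed between NPP and N at an adjusted p under 0.05 in edgeR's quasi-likelihood test. 51 genes (0.377%) rose, with a median log2FC of 1.10, and 24 (0.178%) fell, with a median of -0.98. The log2FC was at least 1 in size for 46 of them, and the median over all genes tested was -0.01. All 75 were apart in the 4 libraries, that is, both NPP values lay on the same side of both N values. The same was true of 18.8% of all genes tested upwards and of 21.1% downwards. With 2 libraries on each side an exact permutation test of a single gene cannot give a two-sided p below 0.333, so the calls rest on the spread that edgeR shares among genes and among the 16 libraries of the line. Without N replicate 2 the count fell to 10 genes, of which 9 were among the 75 (NDUFC2-KCTD14, CCNG2, HIST1H2BC, PIM1, CREBRF, HIST1H2BK, SERTAD4, CDC25A and ID3), and without N replicate 1 it was 82, of which 32 were among the 75 and 54 were lower. Fewer genes also passed without either NPP library, so the loss was not particular to N replicate 2. Several genes given below as not called without N replicate 2 were not called without any other single library either. From the 8 total mRNA libraries alone, without the polysomal ones taken as parts of the same samples, 21 genes were called, 20 of them among the 75. In the 14 refits tried, 4 without a library and 10 with other settings, no called gene changed sign. All 75 were apart in the 4 libraries, so leaving 1 out could hardly turn a sign. The other settings used these same libraries, so the constant sign is no independent check. 6 of the 75 passed the threshold in each of these refits: CCNG2, PIM1, CREBRF and HIST1H2BK, which rose, and CDC25A and ID3, which fell.

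CCNG2, which encodes cyclin G2, an atypical cyclin linked to cell cycle arrest and a known FOXO target, showed the largest rise among called genes with counts in both groups. It had 48.8 and 36.7 CPM in N and 215 and 244 CPM in NPP. The NPP values lay far above both N values, and the log2FC was 2.42 ± 0.25 (SE, n = 2 against 2, edgeR adjusted p = 0.000378), or 5.37-fold. PIM1, a serine/threonine kinase that promotes survival and acts in part on the same substrates as AKT, had 24.2 and 21.9 CPM in N and 100.2 and 102.1 CPM in NPP. Its replicates were close on both sides, and its log2FC of 2.13 ± 0.14 had the smallest adjusted p of all genes, 3.25e-06. CREBRF, a regulator of the CREB3 family of transcription factors, went from 14.7 and 9.95 CPM to 49.0 and 50.1 CPM (log2FC 2.00 ± 0.20, edgeR adjusted p = 0.000306).

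ID3 fell further than any other called gene. This inhibitor of basic helix-loop-helix factors, a target of BMP signalling, had 13.7 and 17.1 CPM in N and 1.73 and 1.62 CPM in NPP. Both NPP values lay far below both N values, the fitted level was 9.15-fold lower, and the log2FC was -3.19 ± 0.22 (edgeR adjusted p = 3.91e-06). Its paralogue ID1 had 23.9 and 12.8 CPM in N and 8.20 and 7.11 CPM in NPP, with a log2FC of -1.27 that did not pass (adjusted p = 0.208). ID2 was near 1 CPM in all 4 libraries (log2FC 0.34, adjusted p = 0.881). Over the 21 tested genes of the list of ID proteins and BMP signalling, ID3 was the single call, 10 lay below and 3 above in both NPP libraries (21.1% and 18.8% of all genes tested), and the median log2FC was -0.41. That median was -0.18 without N replicate 1, -0.21 without NPP replicate 2 and -0.38 without N replicate 2.

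**Figure D2:**
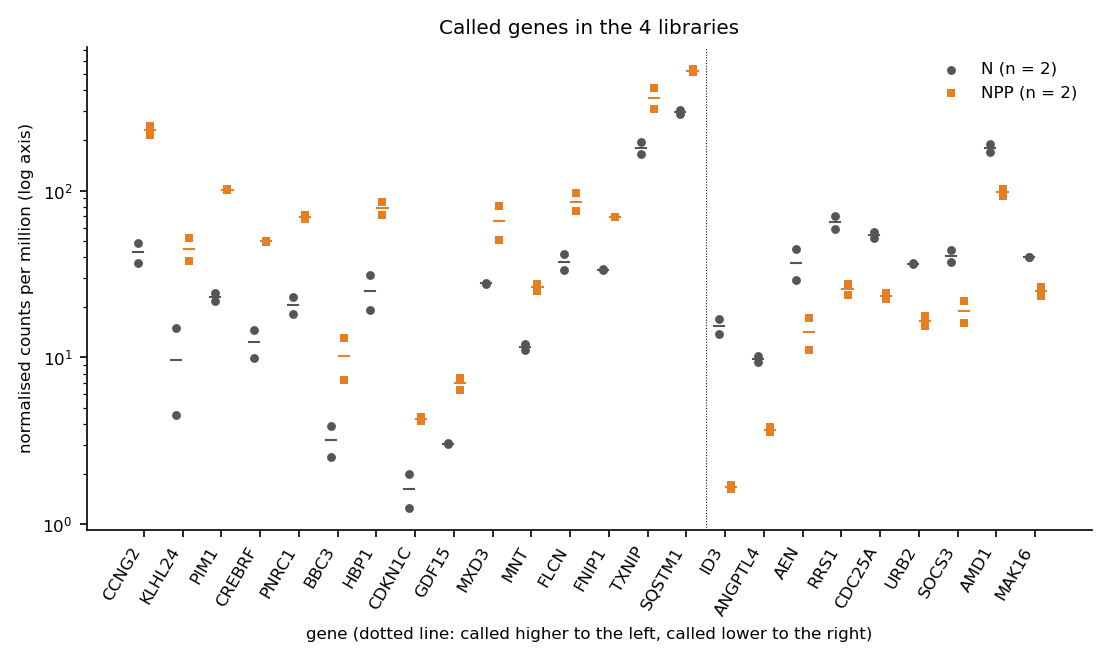
Values of 24 called genes in the 4 libraries, in CPM on a log axis, with circles for N, squares for NPP and a bar at the mean of each pair. The squares lie above both circles for the 15 genes to the left of the dotted line and below them for the 9 to the right, and the N replicates differ most for KLHL24 (14.9 and 4.49 CPM).

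Of 49 tested FOXO factors and targets, 6 rose and none fell (0.377% and 0.178% of all genes tested), with a median log2FC of 0.32. 27 of them lay above in both NPP libraries and 4 below (18.8% and 21.1% of all genes tested). Without N replicate 2, CCNG2 alone of the 6 was called, and the median was 0.31. Beside CCNG2 the members called were KLHL24, BBC3, HBP1, TXNIP and ATG14. KLHL24, a substrate adaptor of a ubiquitin ligase, had 14.9 and 4.49 CPM in N and 52.1 and 37.7 CPM in NPP. Its N replicates differed more than 3-fold, and its log2FC of 2.18 ± 0.42 (edgeR adjusted p = 0.0297) ranged from 1.59 to 3.33 as single libraries were left out. HBP1, a transcriptional repressor that slows entry into S phase, had 31.1 and 19.3 CPM in N and 85.3 and 71.2 in NPP (log2FC 1.63 ± 0.25, edgeR adjusted p = 0.00968). BBC3, the pro-apoptotic protein PUMA, was at 2.51 and 3.87 CPM in N and at 7.28 and 13.03 in NPP. TXNIP, the arrestin that limits glucose uptake and binds thioredoxin, was the most abundant of them, with 196 and 166 CPM in N and 411 and 308 in NPP (log2FC 0.99 ± 0.18, edgeR adjusted p = 0.0208). Several members lay above in both NPP libraries without passing: KLF6 had a log2FC of 0.97 (adjusted p = 0.0531), SESN3 of 0.97 (adjusted p = 0.0775), the ubiquitin ligase FBXO32 of 1.15 (adjusted p = 0.0784) and PDK4, an inhibitor of pyruvate dehydrogenase, of 1.35 (adjusted p = 0.257). The factors themselves were not called, and FOXO3 had a log2FC of 0.51 and FOXO1 of 0.35.

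No subunit of the mTOR complexes was called. MTOR had 39.4 and 36.1 CPM in N and 36.9 and 43.5 CPM in NPP, RPTOR 35.3 and 40.8 against 40.0 and 41.0, and RICTOR 43.2 and 26.6 against 46.6 and 40.7. The groups overlapped for each of these subunits, with log2FC of 0.09, 0.09 and 0.32 and adjusted p of 0.969, 0.967 and 0.721. Of 45 members of the pathway, 2 rose and none fell (0.377% and 0.178% of all genes tested), and the median was 0.02. In both NPP libraries 8 members lay above and 11 below (18.8% and 21.1% of all genes tested). The genes called were FLCN and FNIP1, which form the folliculin complex that acts on the Rag GTPases at the lysosome. FLCN had 33.2 and 41.9 CPM in N and 75.3 and 96.4 in NPP (log2FC 1.195 ± 0.20, edgeR adjusted p = 0.0158), and FNIP1 had 33.4 and 33.8 CPM against 69.6 and 69.4 (log2FC 1.05 ± 0.16, edgeR adjusted p = 0.00867). Both are known targets of TFEB and TFE3, and neither was called without N replicate 2. DDIT4, an mTORC1 inhibitor, had 90.7 and 26.7 CPM in N and 218 and 53.9 in NPP. Its replicates differed more than its groups, and its log2FC of 1.21 was not called (adjusted p = 0.66). RHEBL1, a relative of the mTORC1 activator RHEB, rose from 3.34 and 2.96 CPM to 10.7 and 11.9 CPM (log2FC 1.83 ± 0.30, edgeR adjusted p = 0.0158).

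Among 72 lysosome and autophagy genes 2 rose and none fell (0.377% and 0.178% of all genes tested). SQSTM1, the autophagy receptor p62, went from 289 and 305 CPM to 536 and 513 CPM (log2FC 0.82 ± 0.14, edgeR adjusted p = 0.017), and ATG14, a subunit of the class III PI3-kinase, from 27.2 and 23.1 to 39.7 and 38.3 CPM (log2FC 0.63 ± 0.13, edgeR adjusted p = 0.0499). 39 members lay above in both NPP libraries and 8 below (18.8% and 21.1% of all genes tested), and the median was 0.16. Without N replicate 2 neither SQSTM1 nor ATG14 was called. Of 34 lysosomal genes proper none was called. The sterol and fatty acid list had 1 call among 43 genes, against 0.555% of all genes tested. In both NPP libraries 13 of its members lay above and 2 below. INSIG1, which retains the SREBP precursors in the endoplasmic reticulum, rose from 118 and 129 CPM to 218 and 186 CPM (log2FC 0.71 ± 0.14, edgeR adjusted p = 0.0381). The median of the list was 0.16, and without N replicate 2 INSIG1 was not called.

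Of 33 tested genes in the list of histones 5 rose and none fell (0.377% and 0.178% of all genes tested). Their median log2FC of 0.88 was the highest of the 30 lists examined. HIST1H2BC had 0.897 and 1.65 CPM in N and 5.55 and 5.36 in NPP, and HIST1H2AC had 13.3 and 13.5 CPM against 49.2 and 43.9 (log2FC 1.80 ± 0.25, edgeR adjusted p = 0.00364). HIST1H2BK had 25.04 and 29.2 CPM in N and 79.5 and 76.9 in NPP, and the linker histone HIST1H1C had 24.6 and 27.9 against 59.3 and 78.5. HIST1H4H was the fifth (log2FC 1.03 ± 0.21, edgeR adjusted p = 0.0404). All 5 belong to the histone cluster of chromosome 6, and the list leaves out H2BFS and H1F0, which were also called higher and are given below. HIST1H2BC (chr6:26086317-26123926, minus strand) and HIST1H2AC (chr6:26124145-26139116, plus strand) are divergent neighbours in GENCODE release 44 on GRCh38. 20 members lay above in both NPP libraries and none below (18.8% and 21.1% of all genes tested). Poly(A) selection came before library making, the kit does not keep strand, and most replication-dependent histone mRNAs end in a stem-loop without a poly(A) tail, so these values describe the polyadenylated share. Histone genes are near-identical copies, among which the reads may be split. Without N replicate 2, HIST1H2BC and HIST1H2BK of the 5 were called, and the median was 0.95. The median was 0.66 without NPP replicate 2 and 0.54 when genes were not filtered for low counts.

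**Figure D3:**
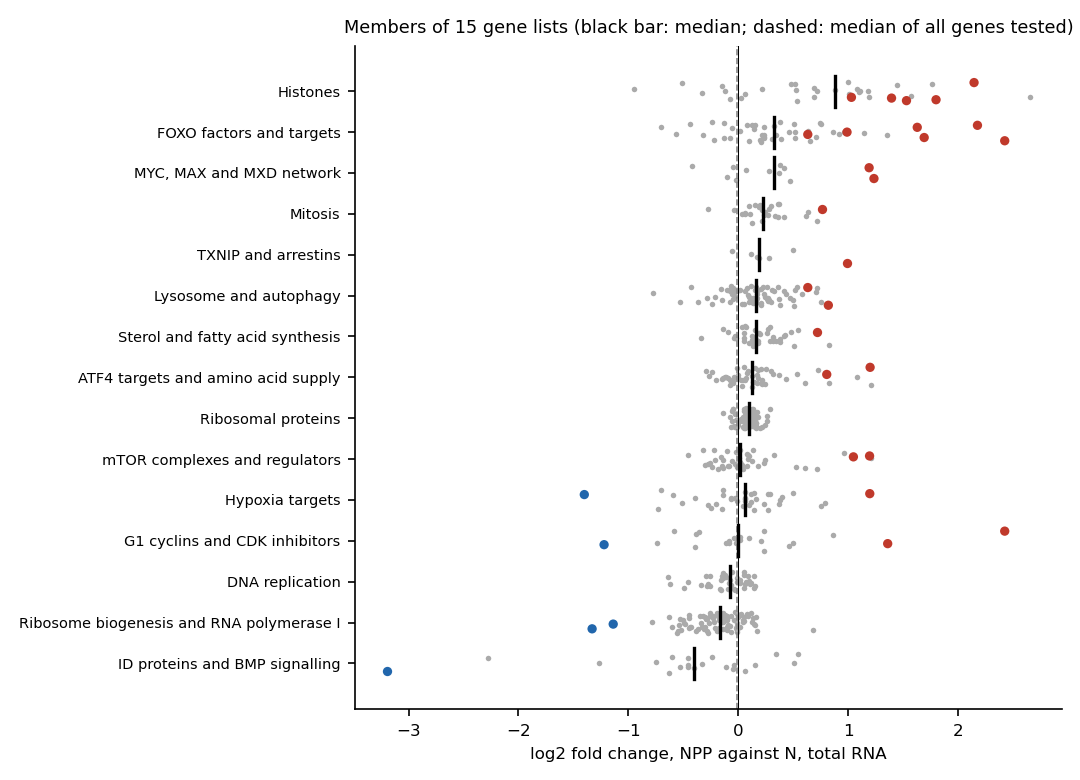
Each point is the log2FC (NPP against N, total mRNA) of a tested member of 15 gene lists, with called genes in red (higher) or blue (lower), a black bar at the list's median and a dashed line at the median of all genes tested. The bar of the histones lies farthest to the right, at 0.88, and that of ID proteins and BMP signalling farthest to the left, at -0.41.

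For genes that act on ribosome production the calls were in the other direction. Of 95 tested members of ribosome biogenesis and RNA polymerase I, 2 fell and none rose (0.178% and 0.377% of all genes tested). 43 lay below in both NPP libraries and 3 above (21.1% and 18.8% of all genes tested), and the median was -0.17. RRS1, an assembly factor of the large ribosomal subunit, had 58.7 and 70.3 CPM in N and 23.6 and 27.7 in NPP (log2FC -1.33 ± 0.18, edgeR adjusted p = 0.00364). URB2, a nucleolar factor, had 36.5 CPM in both N libraries and 15.5 and 17.7 CPM in NPP (log2FC -1.14 ± 0.17, edgeR adjusted p = 0.00923). The rRNA methyltransferase NOP2 (log2FC -0.63, adjusted p = 0.0738) and the polymerase I subunit TWISTNB (log2FC -0.60, adjusted p = 0.0921) lay below without passing. Without N replicate 2 neither RRS1 nor URB2 was called, and the median of the list was -0.07. MAK16, a further large-subunit factor that was outside the list and is named after its value was seen, fell from 40.1 CPM in both N libraries to 26.5 and 23.2 CPM (log2FC -0.69 ± 0.14, edgeR adjusted p = 0.0339).

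The mRNAs of the ribosomal proteins themselves gave another picture in total mRNA. Of 79 genes none was called by edgeR, 0 had an unadjusted p under 0.05, against 10.3% of all genes tested, and DESeq2 called 0. Their log2FC lay between -0.14 and 0.29 with a median of 0.09, or 0.22 without N replicate 2. RPL13A had 1405 and 1690 CPM in N and 1637 and 2152 in NPP (log2FC 0.29), and RPL10A 951 and 1078 against 1076 and 1360 (log2FC 0.26). The 20 other TOP mRNAs likewise held no call, with 3 at an unadjusted p under 0.05 and 1 called by DESeq2, and their median was 0.15. The initiation factor EIF4B had 189 CPM in both N libraries and 253 and 288 in NPP (log2FC 0.52, adjusted p = 0.212), and the elongation factor EEF2 had a log2FC of 0.34 (adjusted p = 0.773). In the polysomal libraries of the same treatment, where 264 genes (1.95%) were called, 76 of the 79 ribosomal protein genes were lower, with a median of -1.32. The 264 became 160 from the libraries of that contrast alone, and they depended on single libraries, as given below. The difference between the polysomal and the total effect was itself called for 46 genes (0.34%), all of them lower in polysomes, and 36 of these were ribosomal protein genes and 3 were other TOP mRNAs. With a library left out the 46 became between 7 (without polysomal NPP replicate 1) and 65 (without polysomal N replicate 2), and without total N replicate 1 there were 12 lower and 3 higher.

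Members of the MYC, MAX and MXD network, a set of factors that compete for E-box sequences, included 2 calls among 12 genes, both higher and both repressors. Of all genes tested 0.377% were called higher. In both NPP libraries 7 members lay above and 2 below (18.8% and 21.1% of all genes tested). MXD3 had 28.1 and 27.6 CPM in N and 50.5 and 80.4 in NPP (log2FC 1.24 ± 0.23, edgeR adjusted p = 0.0231), and MNT had 11.9 and 11.1 CPM against 25.1 and 27.7 (log2FC 1.19 ± 0.21, edgeR adjusted p = 0.0185). MYC itself had 185 and 188 CPM in N and 225 and 275 in NPP, with a log2FC of 0.42 that did not pass (adjusted p = 0.228). Neither MXD3 nor MNT was called without N replicate 2.

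The cell cycle genes called were few in number, and over all genes tested 0.555% were called. Of 22 G1 cyclins and CDK inhibitors 5 lay above in both NPP libraries and 6 below. CDC25A, the phosphatase that activates CDK2 and opens the way into S phase, fell from 52.2 and 56.8 CPM to 24.2 and 22.5 CPM (log2FC -1.22 ± 0.15, edgeR adjusted p = 0.00149). CDKN1C, the CDK inhibitor p57, rose from 2.01 and 1.25 CPM to 4.17 and 4.41 CPM (log2FC 1.36 ± 0.28, edgeR adjusted p = 0.0394). Together with CCNG2 they were the 3 calls among 22 G1 cyclins and CDK inhibitors, a list with a median of -0.00, and without N replicate 2 CDKN1C was not called. Of 41 DNA replication genes none was called by edgeR and DESeq2 called 2. An unadjusted p under 0.05 was found for 4 of them, all lower, against 10.3% of all genes tested. The licensing factors MCM10 (82.5 and 84.6 CPM in N, 57.3 and 49.8 in NPP, adjusted p = 0.0833) and CDC6 (185 and 228 against 126 and 143, adjusted p = 0.0999) came nearest. Of the 41, 13 lay below in both NPP libraries and 1 above, while 21.1% of all genes tested lay below and 18.8% above. Among 28 mitosis genes CENPF, a kinetochore protein, was called higher (186 and 190 CPM against 278 and 360, log2FC 0.76 ± 0.14, edgeR adjusted p = 0.0267), and 18 lay above in both NPP libraries with none below (18.8% and 21.1% of all genes tested). CENPF was not called without N replicate 2. In bulk RNA, fewer cells in a phase of the cycle and less RNA per cell cannot be told apart.

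Of 52 tested genes in the list of ATF4, its targets and amino acid supply, 2 rose. In both NPP libraries 19 lay above and 2 below (18.8% and 21.1% of all genes tested). For each list of this paragraph, the share called over all genes tested was 0.377% higher and 0.178% lower. GDF15, a secreted stress cytokine, went from 3.01 and 3.07 CPM to 7.57 and 6.41 CPM (log2FC 1.2 ± 0.24, edgeR adjusted p = 0.0394), and HERPUD1, which serves protein degradation at the endoplasmic reticulum, from 96.8 and 83.3 to 161 and 154 CPM (log2FC 0.81 ± 0.16, edgeR adjusted p = 0.0375). DDIT3, the factor CHOP, was just outside the threshold (log2FC 1.08, adjusted p = 0.0502). Of 39 tested hypoxia factors and targets, ANKRD37 rose from 6.42 and 5.68 CPM to 13.5 and 14.4 CPM (log2FC 1.197 ± 0.20, edgeR adjusted p = 0.0158) and ANGPTL4, a regulator of lipoprotein lipase, fell from 9.33 and 10.2 CPM to 3.80 and 3.59 CPM (log2FC -1.40 ± 0.26, edgeR adjusted p = 0.0267). CA9, the hypoxia-induced carbonic anhydrase, lay below 1 CPM in all 4 libraries (0.574 and 0.0568 in N, 0.719 and 0.215 in NPP), and was at 19.2 and 13 CPM in the H libraries. ITGB3, an integrin subunit, was at 2.33 and 1.93 CPM in N and 2.24 and 1.47 in NPP, and the groups overlapped (log2FC -0.21, adjusted p = 0.931). Of 52 genes of ERK feedback and the immediate early response, DUSP7, a phosphatase of ERK, was the single call (55.0 and 64.6 CPM against 29.0 and 29.2, log2FC -1.04 ± 0.17, edgeR adjusted p = 0.0174). GDF15, HERPUD1, ANKRD37, ANGPTL4 and DUSP7 were not called without N replicate 2.

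In the list of TXNIP and the arrestins, TXNIP was the single call among 7 tested genes, against 0.555% of all genes tested. The median log2FC of that list was 0.19. The lists that follow held no call by edgeR. Among 33 receptor kinases and adaptors 5 had an unadjusted p under 0.05 and DESeq2 called 0, and IRS2, the insulin receptor substrate, had 21.9 and 29.7 CPM in N and 32.9 and 48.1 in NPP (log2FC 0.66, adjusted p = 0.446). The adaptor GRB7 stayed below 1 CPM (log2FC 0.74, adjusted p = 0.779). Of 25 glycolysis genes 1 had an unadjusted p under 0.05 and DESeq2 called 1, and the glucose transporter SLC2A3 had 19.4 and 14.6 CPM against 42.4 and 24.3 (log2FC 0.97, adjusted p = 0.164). The lactate transporter SLC16A1 had a log2FC of -0.59 (adjusted p = 0.85). Against the 10.3% of all genes tested, unadjusted p under 0.05 were found for 5 of 25 inflammatory genes, 4 of 29 interferon genes and 3 of 22 Notch genes, with 0 called by DESeq2 in each of these lists. IL6, a cytokine this line secretes, had 8.47 and 4.04 CPM in N and 26.5 and 7.91 in NPP, and the interferon-induced IFIT2 had 33.1 and 14.8 against 73.8 and 26.4. For both of these genes replicate 1 was the higher on each side, and the groups overlapped. IL24, a cytokine, had 28.9 and 16.8 CPM in N and 60.3 and 44.1 in NPP (log2FC 1.18, adjusted p = 0.254), and IFIT3 had 76.5 and 48.9 against 127.8 and 92.3 (log2FC 0.81, adjusted p = 0.285). Of the Notch genes, the ligand JAG2 had a log2FC of 0.78 (adjusted p = 0.389) and the glycosyltransferase MFNG of 0.94 (adjusted p = 0.755). Of 19 clock genes 6 had an unadjusted p under 0.05 and DESeq2 called 1, and the repressor PER2 had 4.70 and 3.98 CPM against 2.59 and 2.08 (log2FC -0.90, adjusted p = 0.16). DBP, an activator of the clock output, had 3.01 and 2.56 against 5.47 and 4.38 CPM (log2FC 0.81, adjusted p = 0.405). None of 13 mitochondrially encoded mRNAs and none of 13 integrins had an unadjusted p under 0.05 or was called by DESeq2, and the largest log2FC were 0.25 for MT-CO2 and 0.16 for MT-ND4, and 0.47 for ITGB4 and 0.33 for ITGA10. In the 5 lists of cell markers an unadjusted p under 0.05 was found for 2 of 11 genes of MDA-MB-231 identity, 2 of 6 MCF10A markers, 0 of 4 fibroblast, 0 of 2 leukocyte and 1 of 2 endothelial markers, with 0 called by DESeq2. Their largest log2FC were -1.40 for PGR and -0.42 for GATA3, -1.58 for CDH1 and -0.52 for KRT14, -1.16 for COL3A1 and -0.25 for LUM, -0.38 for PTPRC and -0.36 for CD14, and 0.64 for KDR and -0.19 for PECAM1, in that order.

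Other called genes belonged to no list. Among those that rose, GPR146, an orphan receptor, went from 0.538 and 0.455 CPM to 2.82 and 2.39 CPM (log2FC 2.37 ± 0.33, edgeR adjusted p = 0.00415), and PNRC1, a nuclear receptor coactivator, from 23.0 and 18.3 to 71.4 and 67.7 CPM (log2FC 1.75 ± 0.24, edgeR adjusted p = 0.00364). HCG27, a gene of the HLA region, rose from 0.969 and 1.14 to 3.83 and 3.56 CPM, and the histone copy H2BFS from 2.15 and 2.10 to 6.24 and 5.03 CPM. The deposited counts class HCG27 as protein-coding, whereas GENCODE release 44 lists it as a long non-coding RNA. Among those that fell, AEN, an apoptosis-related nuclease, had 28.9 and 44.8 CPM in N and 11.1 and 17.3 in NPP. SOCS3, a feedback inhibitor of cytokine receptors, had 37.5 and 43.9 against 16.2 and 21.7 CPM (log2FC -1.10 ± 0.20, edgeR adjusted p = 0.0229). The transcription factors OSR1 (10.2 and 13.2 against 4.83 and 5.12 CPM) and ZNF488 (18.01 and 18.2 against 9.15 and 7.75 CPM), the metalloproteinase ADAM19 (23.9 and 25.5 against 10.99 and 11.8 CPM) and SERTAD4 (35.3 and 32.8 against 15.4 and 16.7 CPM) fell by 1.08 to 1.23 on the log2 scale. 33 further called genes met none of the naming rules, 21 higher and 12 lower. Of these, named after their values were seen, AMD1, which makes the aminopropyl donor for polyamines, fell from 170 and 189 CPM to 102.6 and 92.8 CPM, and the linker histone H1F0 rose from 355 and 362 to 630 and 696 CPM.

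NDUFC2-KCTD14 (chr11:78016971-78079865, minus strand), a readthrough gene over NDUFC2 and KCTD14, had no count in either N library, and 37 and 66 counts in the NPP libraries (1.06 and 2.02 CPM). Against a floor of 3 counts over both N libraries it was at least 23.2-fold higher. KCTD14 (chr11:78015715-78046191) fell from 23.5 and 25.6 CPM to 13.9 and 15.0 CPM, NDUFC2 (chr11:78068297-78079862) had a log2FC of -0.03, and the readthrough gene overlaps both, so how the reads were divided among them is uncertain. In the other libraries of the line the readthrough gene had between 0.658 and 4.87 CPM, treated or not, so the zeros of N stood apart.

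The starts of the called genes were searched for 6 short motifs, since several groups above are known to be reached through such sequences. RefSeq promoters (GRCh38.p14, from 250 bases before to 50 after the start) were matched by symbol for 37 of the 51 genes that rose, 17 of the 24 that fell and 10305 of all tested genes. The E-box CACGTG, a palindrome and the core shared by sites for MYC, MNT and TFEB, was in 15 of the 37 promoters (40.5%), against 9.99% of all tested genes, 7.43% of all 27305 promoters of the table and 3 of the 17 genes that fell (17.6%). The forkhead letters GTAAACA, read on both strands, were in 3 of the 37 (8.11%) against 2.23% of the tested genes, and in none of the 17. TGATGNAA, the C/EBP-ATF element, was in 2 of 37 and 1 of 17 (1.7% of the tested genes), the hypoxia core TACGTG in 3 of 37 and 0 of 17 (3.44%), the E2F letters TTTCCCGC in 0 of 37 and 2 of 17 (2.56%), and the sterol regulatory element SRE-1 in none (0.097%). No 2 of the 6 motifs can match the same letters in full. These are matches of letters and not binding data. The 30-base windows that follow show the E-box, in capitals, in every gene described above that rose and holds it, each read on the gene's strand: CCNG2 at chr4:77157165-77157194, CREBRF at chr5:173056211-173056240 and chr5:173056326-173056355, FNIP1 at chr5:131797175-131797204 and chr5:131797094-131797123, MNT at chr17:2401236-2401265, ATG14 at chr14:55411834-55411863, INSIG1 at chr7:155297811-155297840, HERPUD1 at chr16:56931971-56932000, ANKRD37 at chr4:185396667-185396696, BBC3 at chr19:47232882-47232911, CENPF at chr1:214602990-214603019 and GPR146 at chr7:1044537-1044566.
CCNG2: tccgcggggagtCACGTGccccgccccctt
CREBRF, first: cccctccggcgaCACGTGacaggggtgccc
CREBRF, second: ctcgccgcggccCACGTGaggggggcgagt
FNIP1, first: ccccgcccctgcCACGTGacgggacccgcc
FNIP1, second: tccgcgcgccgcCACGTGatgcggcccccc
MNT: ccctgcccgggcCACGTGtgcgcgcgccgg
ATG14: aaaacaaaatccCACGTGactggctctcct
INSIG1: gccgggcaggctCACGTGatgcgggccccg
HERPUD1: tcagcccgtgccCACGTGctcggtccgccc
ANKRD37: ggcgccgggctcCACGTGccagtgtttgtg
BBC3: atggggagatttCACGTGagatatagatta
CENPF: cattagcaaaagCACGTGgtctccgtctcc
GPR146: ggggccgacggtCACGTGtgtacacagggc

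The forkhead letters occurred in the promoters of HBP1 (chr7:107168819-107168848), TXNIP (chr1:145996685-145996714) and GDF15 (chr19:18386051-18386080), and in GDF15 they are read on the opposite strand. HBP1 and TXNIP are members of the FOXO list and GDF15 is not, and the capitals mark the match. CCNG2, BBC3 and ATG14, also called members of that list, had promoters that were searched and held no forkhead match.
HBP1: catcttctccaGTAAACAcaacacaaaagt
TXNIP: tcgggctcctgGTAAACAaggaccgggcag
GDF15: ggtcattggagTGTTTACtctgcaggcagg

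The response was compared with that of hypoxic cells, whose 4 libraries (H and HPP) are separate from those above. In hypoxia PP242 changed 511 genes (3.78%). That count was 120 from the 8 total mRNA libraries alone, and it depended strongly on single libraries, as given below. Of the 75 genes called in normoxia, 74 moved in the same direction in hypoxia and 64 were called there in that direction. Their median log2FC was 1.11 for the 51 that rose and -1.01 for the 24 that fell, against 1.10 and -0.98 in normoxia, while 46.5% of all genes tested were higher in HPP. PIM1 rose by 2.26 on the log2 scale in hypoxia and ID3 had a log2FC of -2.33. The difference between the effects in hypoxia and in normoxia was called for 1 gene of 13510 (0.0074%), which was NDUFC2-KCTD14. When the 8 total mRNA libraries alone were fitted with a replicate block, NDUFC2-KCTD14 was not called for this difference. Among the 75, the difference had an unadjusted p under 0.05 for 7. Of the 75, 10 did not pass in hypoxia and NDUFC2-KCTD14 was called there in the opposite direction. The 10 included GDF15 (0.76), HERPUD1 (0.29), ANKRD37 (0.47), HCG27 (0.76) and SOCS3 (-0.52), named as examples. The difference between conditions was called for none of these examples. Its unadjusted edgeR p was 0.2207 for GDF15, 0.0378 for HERPUD1, 0.01465 for ANKRD37, 0.04963 for HCG27 and 0.05437 for SOCS3.

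In polysomal mRNA from normoxic cells CCNG2 had a log2FC of 2.71 and ID3 of -3.16, against 2.42 and -3.19 in total mRNA. The sample titles give the total and the polysomal library of a replicate the same number, so both fractions were taken as parts of the same samples and the polysomal values are no independent repeat. The difference between polysomal and total effects passed for 1 of the 75, again NDUFC2-KCTD14, and its median over the 75 was -0.02. That fit treats the fractions as separate libraries. With a replicate block the difference was called for 0.511% of the genes fitted, against 0.34% without it.

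In MCF10A cells PP242 in normoxia changed 85 genes (0.648% of 13124 tested). 73 of the 75 genes were tested there: 67 moved in the same direction and 13 were called in it. CCNG2 had a log2FC of 1.96 (adjusted p = 0.101). Those called in both lines included PIM1 (2.42) and TXNIP (3.01) among genes that rose and AEN (-2.31), URB2 (-2.19) and ID3 (-2.17) among genes that fell. Most of the 73 were not called in MCF10A. Named as examples, these included HIST1H2BC (-0.19, adjusted p = 0.932), HIST1H2BK (0.40, adjusted p = 0.84) and INSIG1 (-0.29, adjusted p = 0.845). HIST1H2BC was near the floor in the MCF10A total libraries, with 0.627 and 0.653 CPM in N and 0.646 and 0.46 in NPP. The difference between the lines was called for 8 of 14298 genes (0.056%) and for none of the 75 by edgeR, of which 17 had an unadjusted p under 0.05 and the smallest adjusted p was 0.173. Both MCF10A counts depended on single libraries. The 85 became 398 without MCF10A NPP replicate 1, 32 without NPP replicate 2, 4 without N replicate 1 and 3 without N replicate 2, and 0 from its 4 libraries alone in edgeR (477 at an unadjusted p under 0.05, and 333 by DESeq2 over its 16 libraries). The 8 became 1388 without MCF10A NPP replicate 1, 1295 of them with the higher log2FC in MDA-MB-231, and between 1 and 7 when any other library of the contrast was left out. The MCF10A libraries varied more, with a biological coefficient of variation of 0.325 against 0.15 in MDA-MB-231.

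**Figure D4:**
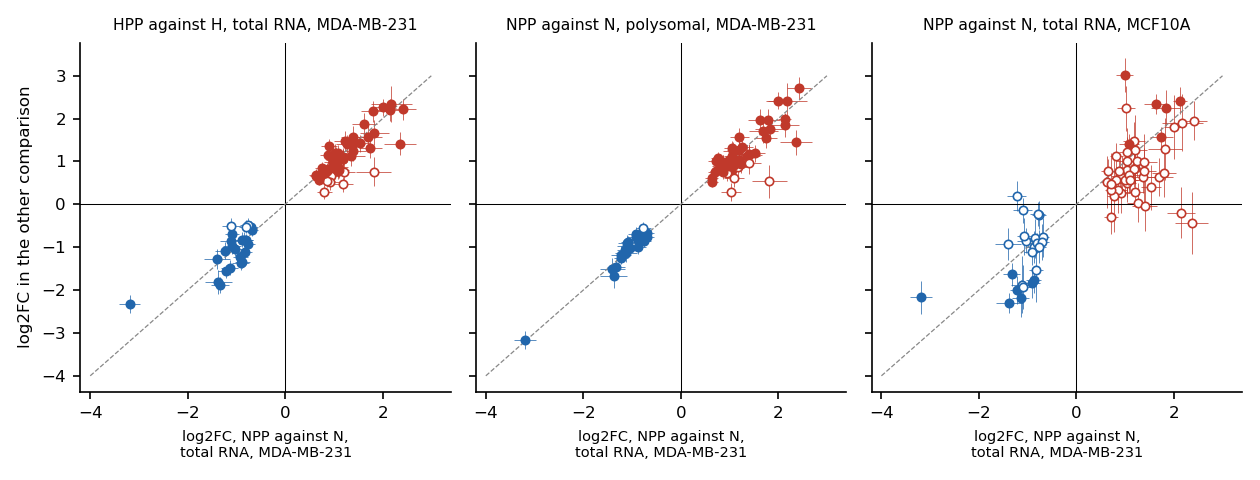
The log2FC of the called genes in normoxic total mRNA (horizontal axis) is plotted against their log2FC in hypoxic total mRNA, in normoxic polysomal mRNA and in normoxic total mRNA of MCF10A (vertical axes), with bars for the SE and filled points where the gene was called in the other comparison. NDUFC2-KCTD14 is not drawn. The polysomal libraries come from the same samples as the total ones. The points lie near the dashed line of equal change in the first 2 panels, and most points of the MCF10A panel are open (13 called).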

How the data were processed

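Total and polysomal mRNA was measured in 32 libraries, made from poly(A)-selected RNA with an unstranded TruSeq kit and sequenced as read pairs. The authors deposited expected counts per gene from RSEM, given as whole numbers, for 60554 genes, after mapping with STAR. The study's methods name GRCh38, while the submitters' processing notes name GRCh37, so coordinates here come from GENCODE release 44 and RefSeq by gene and not from the files. From these counts, 19815 protein-coding genes were kept and filtered with filterByExpr (minimum count 10, minimum total 15), scaled by TMM and fitted with edgeR 4.0.16 in R 4.3.3 over the 16 MDA-MB-231 libraries in 8 groups, without covariates. NPP was tested against N by the quasi-likelihood F test with Benjamini-Hochberg adjustment over all genes and a threshold of 0.05. The SE is the log2FC divided by the square root of F. Alternatives were DESeq2 1.42.0, RLE size factors, no low-count filter, all gene classes, a replicate block, other thresholds, fewer libraries, each library left out and, chosen after seeing the data, thinning and a transcript length offset. Depth was 18340916 to 34752512 counts in the 4 libraries. MCF10A was fitted on its own 16 libraries, and the difference between lines on all 32. Genes of other classes were left out of these fits.

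The comparison, the 30 gene lists and the motifs were chosen with earlier results of these data known. The genes named were, among called genes whose groups did not overlap, the 15 largest rises and 12 largest falls, every called list member, the 2 largest changes in lists without a call, 5 preset genes (MTOR, RPTOR, RICTOR, CA9, ITGB3) and up to 8 called genes with a called difference. Further genes without a call, such as ID1, DDIT4, KLF6 or MYC, were named after their values were seen. The labels call the replicates biological and do not say whether they came from separate cultures, so p-values measure only the spread between these libraries, which may be technical.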

Additional observations from a re-analysis of the deposited data

Results flagged for a closer look

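NDUFC2-KCTD14 was singled out because its response to PP242 differed between conditions. In the edgeR fit the effect in hypoxia minus that in normoxia was -10.6 on the log2 scale (adjusted p = 0.000384), and the effect in polysomal minus that in total mRNA was -8.61 (adjusted p = 0.00471). Both values rest on the 2 N libraries with no count and are therefore not bounds, and the gene overlaps NDUFC2 and KCTD14. The first difference was not called when the 8 total mRNA libraries alone were fitted with a replicate block.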

How the results depend on the processing

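The 75 calls in normoxic total mRNA became 262 with DESeq2, 324 without the low-count filter, 156 at an adjusted p under 0.10, 46 with a log2FC of at least 1, 14 from the 4 libraries alone, 21 from the 8 total mRNA libraries alone, and 10 to 82 as each library was left out. Added after seeing the data, a transcript length offset gave 121 and thinning to the shallowest library 62. The fit with a replicate block gave 170 for the 75, 946 for the 511 in hypoxia, 451 for the 264 in polysomes and 2 for the difference by oxygen. For the difference by fraction it called 0.511% of the genes fitted, against 0.34%. The block within the 8 total mRNA libraries gave 63 (45 of the 75) and 473 (354 of the 511). For the difference by oxygen that last fit called 1 gene, higher, and not NDUFC2-KCTD14. Same-numbered deviations correlated at 0.282 for N and NPP, at over 0.1 in 4 of the 6 pairs of total mRNA groups and at -0.187 in the lowest, and with 2 replicates and no shared culture or day stated across treatments the numbers were not taken as pairs. The 511 calls in hypoxia were 987 with DESeq2, 868 without the filter, 973 at 0.10, 134 with a log2FC of at least 1, 146 from its 4 libraries, 120 from the 8 total mRNA libraries and 24 to 792 with a library left out. The 1 difference by oxygen was 2 with DESeq2, at 0.10, from the libraries of the contrast and from the 8 total mRNA libraries, 16 without the filter, and 1 to 2 with a library left out. The 264 calls in polysomes were 541, 569, 420, 145 and 160 under DESeq2, no filter, 0.10, a log2FC of at least 1 and the contrast's libraries, and 88 to 160 with a library left out. The 46 differences by fraction, 0.34% of the genes fitted, were 0.556% with DESeq2 (which fits more genes), 0.634% without the filter, 0.459% over all gene classes, 0.54% at 0.10, 0.635% from the contrast's libraries and 0.0489% to 0.453% with a library left out. The 85 calls in MCF10A were 333 with DESeq2, 150 at 0.10, 0 from its 4 libraries (477 at an unadjusted p under 0.05 in edgeR), and 3 to 398 with a library left out. The 8 differences between lines were 41 with DESeq2, 2 with RLE size factors, 5 without the filter, 5 over all gene classes, 0 from the contrast's libraries (344 unadjusted) and 1 to 1388 with a library left out. The causes were not tested. No called gene reversed, which their being apart in the 4 libraries made hardly possible as single libraries were left out. Among uncalled genes the sign turned as libraries were left out for GRB7 (-0.11 to 2.11), SLC16A1 (-1.23 to 0.31), MT-ND4 (-0.087 to 0.42), ITGA10 (-0.12 to 1.05), KRT14 (-0.90 to 0.23), PTPRC (-0.87 to 0.088), CD14 (-0.73 to 0.22), PECAM1 (-0.58 to 0.17), RPTOR (-0.0062 to 0.19), CA9 (-0.76 to 2.97) and ITGB3 (-0.54 to 0.11). In N replicate 2, the shallowest library, 1 count was worth 0.0568 CPM, which limits the precision of low values.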

Other observations

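With all gene classes in the fit, 2 of 3485 tested genes outside the protein-coding class of the deposited counts were called, both higher. OSER1-AS1, a long non-coding RNA, had 7.92 and 6.43 CPM in N and 18.8 and 24.3 CPM in NPP (log2FC 1.58, edgeR adjusted p = 0.00711), and RP11-46C24.7, listed as antisense, had 1.97 and 1.45 CPM against 4.95 and 5.31 (log2FC 1.57, adjusted p = 0.0485). The libraries do not keep strand, so reads of an antisense gene and of its partner cannot be told apart.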
